A study of Rattus norvegicus with 4 samples.

Results

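The genes described here encode the subunits of the transcription factor NF-kappaB and the proteins that restrain or release it: Nfkb1, Nfkb2, Rela, Relb, Nfkbia, Nfkbib, Nfkbie, Nfkbiz, Ikbkb and Tnfaip3. Members were found by their gene symbol in the annotation of the array's probe sets, a probe set being the group of short probes that measures a transcript. The annotation paired 11 of the 31042 probe sets with 9 of the 10 listed genes, with 2 probe sets each for Nfkbiz and Ikbkb and 1 for each of the others. No probe set carried the symbol Nfkbie, and an older symbol that RefSeq gives it, Slc35b2, is the current symbol of another gene with its own identifier, so the RNA of Nfkbie was not analysed here. Primary cardiomyocytes of Sprague-Dawley rats aged 1 to 2 days were infected for 24 hours with an adenovirus for GFP alone (Ad-GFP, 2 arrays) or for atrogin-1 and GFP (Ad-atrogin-1, 2 arrays). Both groups thus carried virus and GFP, no array came from uninfected cells or cells given lipopolysaccharide, and the promoter that drives atrogin-1 is not given in the sources used here. The study asked whether NF-kappaB signaling takes part in what atrogin-1 does in these cells, and the arrays bear on the RNA of its components, not on phosphorylation or binding to DNA.

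NF-kappaB proteins act as dimers. RelA (p65) and RelB carry the domains that activate transcription, whereas Nfkb1 and Nfkb2 encode the precursors p105 and p100, which are processed to p50 and p52. In resting cells, inhibitors of the IkappaB family hold the dimers in the cytoplasm, and signals from Toll-like receptors, tumor necrosis factor or interleukin-1 activate the IkappaB kinase (IKK), whose catalytic subunit beta is encoded by Ikbkb. Phosphorylated IkappaB is then ubiquitinated by an SCF ligase with the F-box protein beta-TrCP and degraded, a ligase of the same class as the SCF complex of atrogin-1, which is an F-box protein too. Many of the components are themselves induced by NF-kappaB, and the inhibitors among them, Nfkbia and Tnfaip3 above all, form the feedback that ends a response. In the heart the pathway is known for inducing cytokines and adhesion molecules during infection and injury.

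The promoters of the members are shown first, because feedback through them is how these genes are known to respond to the factor that they encode or restrain. RefSeq promoter windows (build GRCr8, 250 bases before the start of a transcript to 50 bases from it on) matched 8 of the 10 members, all but Relb and Ikbkb. They were searched on both strands for the 10-base NF-kappaB consensus. A match was present in 6 of the 8 windows and in 4.18% of all 33469 windows, and it lay wholly upstream of the start in 5 of the 8 and in 3.54% of all windows. Matches were not particular to the members. Of the related genes with a window that are described below, 29.6% of the target genes and 29.4% of the receptors and adaptors had one. So did 40% of the other IkappaB-like and IkappaB-binding proteins, 20% of the kinases, 18.2% of the genes listed for restraining the pathway and 0% of the ubiquitin list. The matches of Nfkb1 and Nfkb2, or their reverse complements, recurred in Nfkbia, Nfkbiz and Tnfaip3. This pair of 10-base sequences was picked after the members' matches were seen, and 0.185% of all windows hold either. The windows of Rela and Nfkbib held no match. The stretches printed here, 5′ to 3′ on the strand of the gene, show each match in capitals: 30 bases around it for Nfkb1 (chr2:226805440-226805469, minus strand), Nfkb2 (chr1:255108344-255108373, plus strand), Nfkbia (chr6:78597084-78597113, minus strand) and Nfkbie (chr9:22948017-22948046, minus strand), and longer stretches for Nfkbiz (chr11:58251591-58251719, plus strand) and Tnfaip3 (chr1:15544000-15544169, minus strand), the members with the largest differences below.
Nfkb1: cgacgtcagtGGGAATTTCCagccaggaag
Nfkb2: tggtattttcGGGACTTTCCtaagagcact
Nfkbia: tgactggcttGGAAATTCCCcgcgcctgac
Nfkbie: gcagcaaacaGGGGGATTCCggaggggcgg
Nfkbiz: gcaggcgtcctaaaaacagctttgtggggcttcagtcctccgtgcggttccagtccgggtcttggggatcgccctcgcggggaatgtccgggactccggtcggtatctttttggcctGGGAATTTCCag
Tnfaip3: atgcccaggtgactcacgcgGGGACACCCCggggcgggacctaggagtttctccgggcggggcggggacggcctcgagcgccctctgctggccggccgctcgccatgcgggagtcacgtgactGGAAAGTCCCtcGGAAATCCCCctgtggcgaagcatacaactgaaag

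In Nfkb2, Nfkbia and Nfkbiz the match lay within 31 bases upstream of the start, and in Nfkb1 at positions 4 to 13 from the start on, inside the transcribed part. Tnfaip3 had 3 matches, and the 2 nearer ones, at positions -67 to -58 and -55 to -46, stood side by side on the strand opposite to the gene. The annotated genes of Nfkb1, Nfkb2 and Nfkbia begin 435, 2364 and 235 bases upstream of the start used for the window, so these windows belong to a start inside the gene. A match is a feature of the sequence and does not show that NF-kappaB is bound there.

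**Figure D1:**
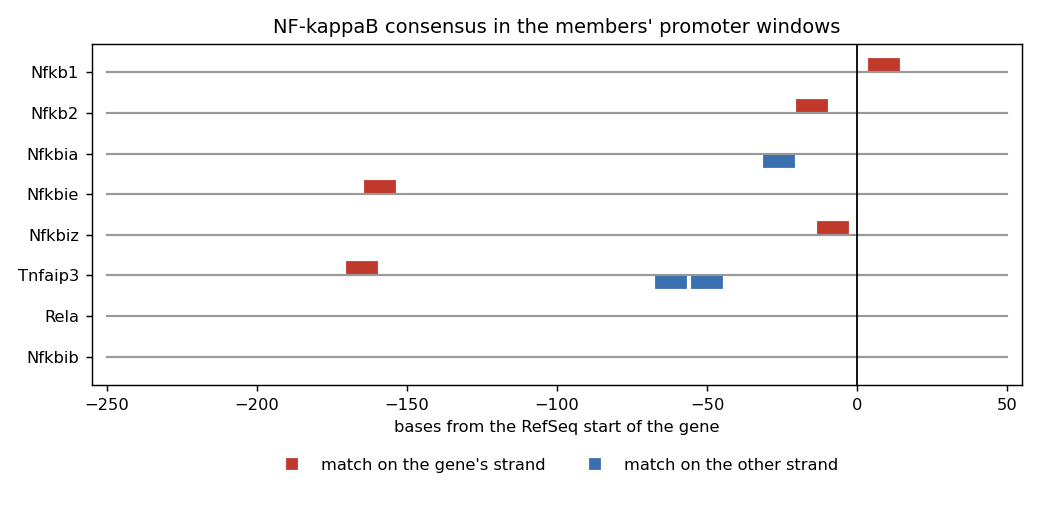
Position of each match to the NF-kappaB consensus (boxes) in the promoter windows of 8 members, in bases from the RefSeq start (vertical line); red boxes above the line are on the strand of the gene and blue boxes below it on the other strand. Of the 8 windows, 6 hold a match, Tnfaip3 holds 3, and Rela and Nfkbib hold none.

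The authors' robust multi-array average (RMA) gave the values as log2 signals, and the array medians lay between 5.51 and 5.52. Fbxo32, the gene of atrogin-1, had log2 signals of 5.24 and 5.04 on the Ad-GFP arrays and 13.55 and 13.47 on the Ad-atrogin-1 arrays, as the labels say it should. The groups were compared with limma over all 31042 probe sets, and calls needed at least a 2-fold change and an adjusted p (Benjamini-Hochberg) under 0.05, the thresholds of the study's methods. Arrays of a group are biological replicates per the labels, which do not say whether separate preparations of cells were used. The number of independent experiments in the study's methods exceeds the 2 arrays of each group, and nothing ties an array to an experiment, so p-values measure the spread between these arrays. In such bulk RNA, fewer cells of a type and less RNA per cell cannot be told apart.

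The genes of the 4 listed NF-kappaB subunits had lower signals on both arrays of Ad-atrogin-1 cells than on either array of Ad-GFP cells, by 1.28- to 1.40-fold, and none of them passed the test. Rel, which encodes the remaining subunit c-Rel, was not analysed here. Nfkb1 had log2 signals of 9.18 and 9.37 in Ad-GFP cells, against 9.0 and 8.83 with Ad-atrogin-1 cardiomyocytes. The nearest arrays of the groups were 0.18 apart and the Ad-GFP arrays 0.19, and the log2 fold change was -0.36 (standard error 0.13, n = 2 arrays per group, adjusted p = 0.417, limma). Nfkb2 had 8.05 and 8.32 in Ad-GFP cells, against 7.86 and 7.56 with Ad-atrogin-1, with a log2 fold change of -0.48 ± 0.16 (standard error) and an adjusted p of 0.368 from limma. Its arrays differed by 0.27 within Ad-GFP and 0.30 within Ad-atrogin-1 on the log2 scale, more than the 0.20 between the nearest arrays of the groups.

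Rela, which encodes the p65 subunit that the study followed by its phosphorylation, stood out by its even Ad-GFP arrays, with the same deposited log2 signal of 8.77 on both. On the Ad-atrogin-1 arrays it had 8.44 and 8.33, so that the arrays within each group lay closer together than the groups did. The log2 fold change was -0.38 (95% interval -0.67 to -0.09, adjusted p = 0.324, limma), a level 1.30-fold lower. Relb, the partner of p52 in the pathway through NF-kappaB-inducing kinase, had 7.71 and 8.01 in Ad-GFP cells, against 7.61 and 7.12 with Ad-atrogin-1. Here the nearest arrays of the groups were 0.10 apart on the log2 scale and Ad-atrogin-1 replicate 2 lay far below the rest, with a log2 fold change of -0.49 (95% interval -1.0 to 0.02, adjusted p = 0.464, limma). Without that array the log2 fold change of Relb was -0.24, and without replicate 1 of Ad-atrogin-1 it was -0.74.

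Of the inhibitors, Nfkbia and Nfkbiz had lower signals on each Ad-atrogin-1 array and Nfkbib showed no difference in either direction. Nfkbia encodes IkappaB-alpha, the inhibitor that is degraded and remade fastest in a response. Its log2 signals were 9.44 and 9.52 in Ad-GFP cells, against 9.13 and 9.0 with Ad-atrogin-1, and the gap between the groups exceeded the difference between the arrays of either group. The log2 fold change was -0.42 (95% interval -0.72 to -0.12), or 1.33-fold lower, with an adjusted p of 0.299 from limma. Nfkbib, which encodes IkappaB-beta, had 7.68 and 7.87 in Ad-GFP cells, against 7.71 and 7.88 with Ad-atrogin-1. The groups overlapped, with a log2 fold change of 0.02 whose 95% interval reached from -0.31 to 0.36, so that a change of the size seen for Nfkbia in the downward direction lay outside it.

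Nfkbiz encodes IkappaB-zeta, a nuclear member of the family that acts on transcription of a subset of NF-kappaB targets such as Il6 and Lcn2, rather than holding dimers in the cytoplasm. Its brighter probe set had log2 signals of 9.99 and 9.98 in Ad-GFP cells, against 9.17 and 9.48 with Ad-atrogin-1. This was the lowest adjusted p among the member probe sets, 0.192 from limma, at a log2 fold change of -0.66 ± 0.15 (standard error), or 1.58-fold lower. The dimmer probe set had 5.58 and 5.47 in Ad-GFP cells, against 5.25 and 5.10 with Ad-atrogin-1, with a log2 fold change of -0.35 ± 0.13 (standard error) and an adjusted p of 0.391 from limma. Both probe sets thus gave the same direction and groups that did not overlap, with different sizes.

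Tnfaip3 encodes A20, a ubiquitin-editing enzyme that shuts off signaling upstream of IKK. It had log2 signals of 8.62 and 8.96 in Ad-GFP cells, against 8.42 and 7.71 with Ad-atrogin-1. It had the largest difference of the members, 1.66-fold lower at a log2 fold change of -0.73, and also the widest error (standard error 0.26, adjusted p = 0.390, limma), with the Ad-atrogin-1 arrays 0.71 apart on the log2 scale. Without Ad-atrogin-1 replicate 2 its log2 fold change was -0.38, and without replicate 1 it was -1.08.

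Ikbkb, which encodes the kinase that marks IkappaB for degradation, was the 1 member whose brighter probe set had higher signals on both Ad-atrogin-1 arrays. Its log2 signals were 7.90 and 7.93 in Ad-GFP cells, against 7.98 and 8.13 with Ad-atrogin-1. The log2 fold change of 0.14 had a 95% interval from -0.16 to 0.44 (adjusted p = 0.749, limma), and the 2 groups were 0.05 apart at their nearest arrays. Without replicate 2 of Ad-atrogin-1 the log2 fold change was 0.067, and without replicate 1 it was 0.21. The other Ikbkb probe set gave log2 signals of 2.27 to 2.71, under the lower quartile of each array (3.88 to 3.94), and its groups overlapped.

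**Figure D2:**
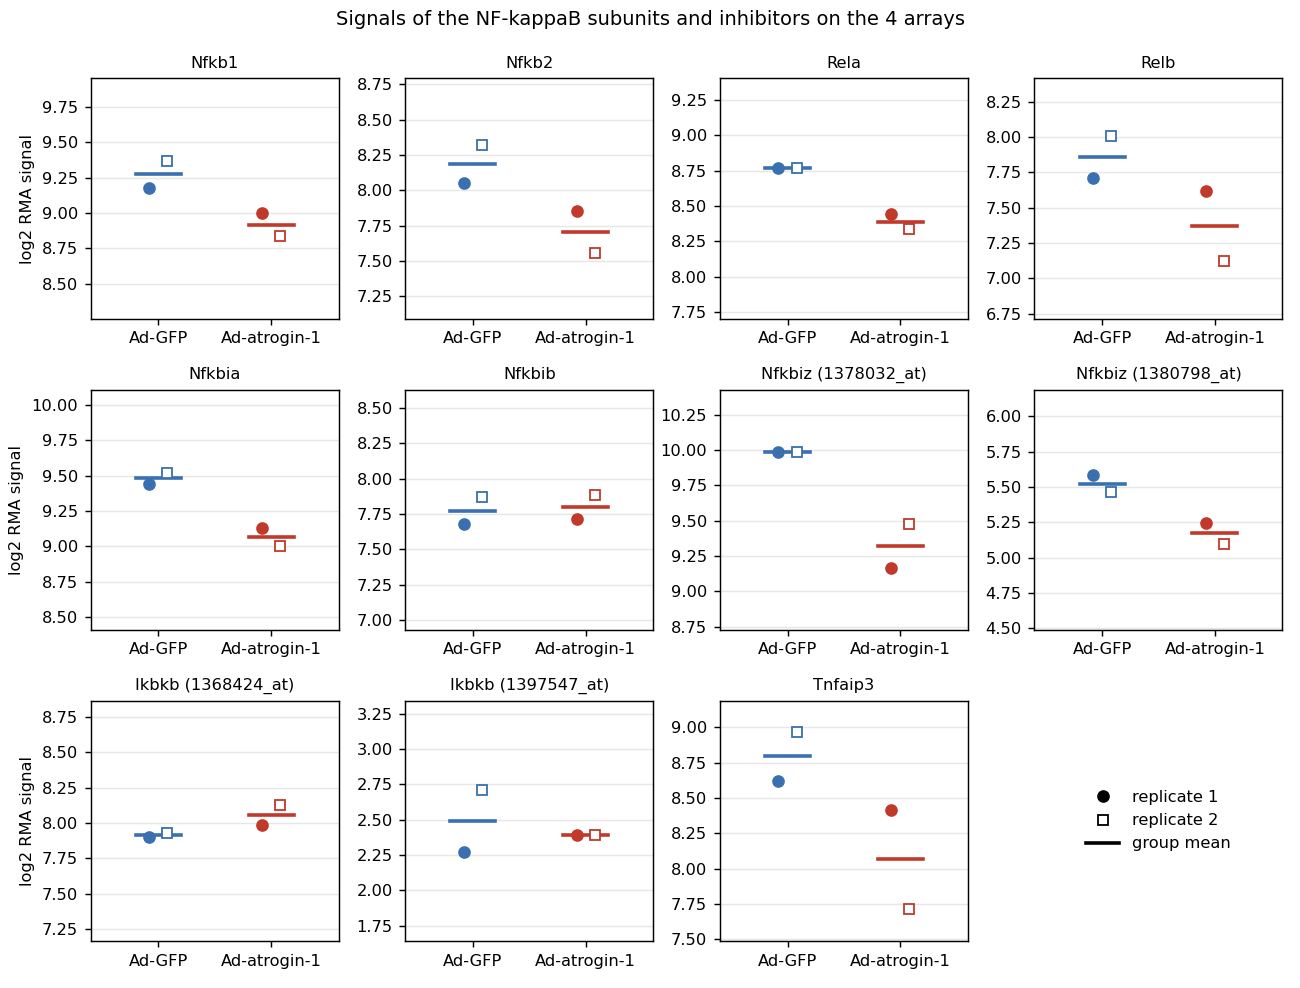
Log2 RMA signal (vertical axis, the same span in each panel) of the 11 member probe sets on the 2 Ad-GFP arrays (blue) and the 2 Ad-atrogin-1 arrays (red); filled circles are replicate 1, open squares replicate 2 and lines the group means. In 8 panels both red points lie below both blue points, and in the Nfkbib panel and that of the dimmer Ikbkb probe set the groups overlap.

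Counted together, 0 of the 11 member probe sets were called by limma in either direction, against 0.274% of all probe sets (0.248% higher and 0.0258% lower). At an unadjusted p under 0.05, 7 of the 11 were lower and 0 higher, where 5.61% of all probe sets were lower and 5.6% higher. The equal-variance test run as the methods' t-test gave 2 lower at an unadjusted p under 0.05, where 4.24% of all probe sets were, and called none. Both Ad-atrogin-1 arrays lay below both Ad-GFP arrays at 8 of the 11 member probe sets, against 22.1% of all probe sets, and above them at 1 of 11, against 18.3%. The brightest 60% of probe sets held 10 of the 11 members, and of all those probe sets 22.9% lay below, 22.1% above, and 7.25% were lower at an unadjusted p under 0.05. The median log2 fold change of the member probe sets was -0.38, beside -0.01 for all probe sets. The members were chosen with earlier results of these data known, so these counts and medians are descriptions and not independent evidence. The number at an unadjusted p under 0.05 rested on single arrays: leaving out replicate 2 of either group left 1, leaving out Ad-GFP replicate 1 left 4, and leaving out replicate 1 of Ad-atrogin-1 left 7. The same omissions left 3.41% to 4.48% of all probe sets lower at an unadjusted p under 0.05. The median of the members lay between -0.45 and -0.28 under them.

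**Figure D3:**
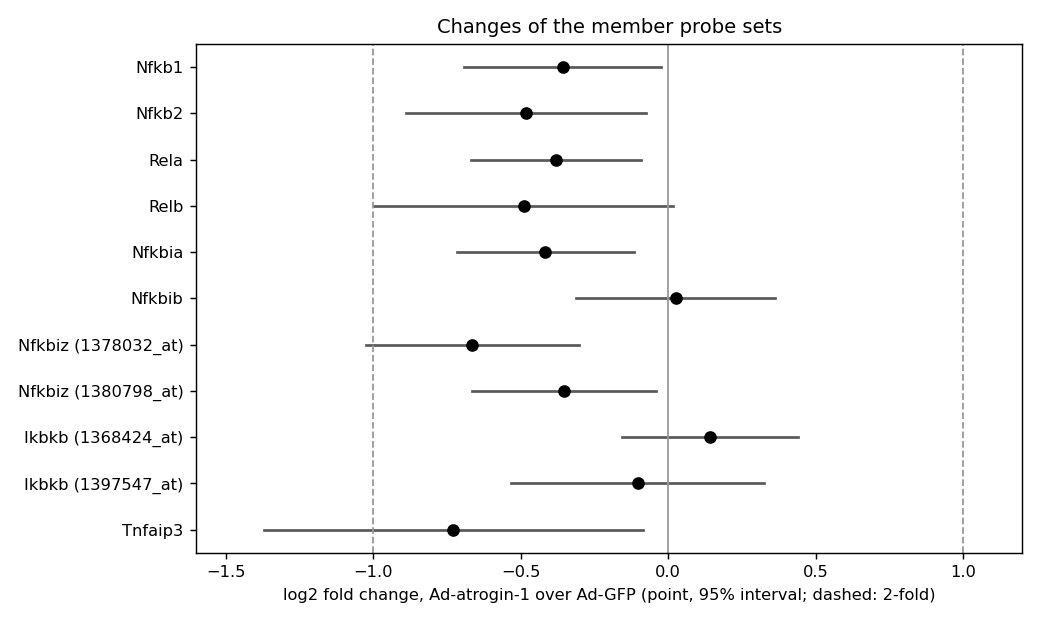
Log2 ratio of Ad-atrogin-1 to Ad-GFP (horizontal axis) of the 11 member probe sets, with bars for the 95% interval of the limma fit and dashed lines at a 2-fold change. The points run from -0.73 for Tnfaip3 to 0.14 for the brighter Ikbkb probe set, no interval lies wholly past a 2-fold change, and 7 intervals lie wholly below 0.

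The order of the single arrays was compared across the members. Ad-GFP replicate 2 was the highest array at 6 of the 11 member probe sets, against 26.0% of all probe sets, and Ad-atrogin-1 replicate 2 the lowest at 7 of 11, against 24.1%. Where both Ad-atrogin-1 arrays lie below both Ad-GFP arrays, the highest must be an Ad-GFP array and the lowest an Ad-atrogin-1 array. These counts, and those of the target genes below, thus partly restate the difference between the groups. Nfkb1, Nfkb2, Relb, Nfkbia and Tnfaip3 had both features. Rela and both Nfkbiz probe sets had their highest or equal highest signal on Ad-GFP replicate 1, and the brighter Nfkbiz probe set was lowest on Ad-atrogin-1 replicate 1. Of the 37 measured NF-kappaB target genes, 29 were highest on Ad-GFP replicate 2 and 24 lowest on Ad-atrogin-1 replicate 2, where 25.6% and 25.2% of all genes were. Their median difference between replicates 2 and 1 was 0.54 for the Ad-GFP arrays and -0.27 for those of Ad-atrogin-1 on the log2 scale. The spread within the groups and the gap between them thus ran through the same genes, and the part of either in the other was not tested.

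Other genes of the pathway were described by their brightest probe set, and limma called none of them. Among 5 measured genes for other IkappaB-like proteins and proteins that bind IkappaB, the median log2 fold change was -0.01. Bcl3, an IkappaB-like coactivator of p50 and p52, had log2 signals of 7.02 and 7.55 in Ad-GFP cells, against 6.86 and 6.43 with Ad-atrogin-1, and was the 1 gene of these at an unadjusted p under 0.05 (log2 fold change -0.64 with a standard error of 0.23, and adjusted p = 0.401 by limma). Nkiras2, which encodes a small Ras-like protein that binds IkappaB, had a log2 difference of 0.17 ± 0.12 (standard error).

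The 10 kinases and partners upstream of the factor had a median log2 fold change of -0.09, with 4 lower and 0 higher without overlap, where 22.3% and 20.7% of all genes were. Chuk, which encodes the alpha subunit of IKK, had 9.10 on both Ad-GFP arrays and 9.07 and 9.41 on the Ad-atrogin-1 arrays, and its groups overlapped. Tab2, an adaptor of the kinase TAK1, had a log2 difference of -0.09 ± 0.13 (standard error). The 1 gene at an unadjusted p under 0.05, named after its value was seen, was Map3k8, a kinase bound and stabilized by p105. It had 5.41 and 6.52 in Ad-GFP cells, against 5.25 and 4.41 with Ad-atrogin-1, with a log2 fold change of -1.13 ± 0.43 (standard error) and an adjusted p of 0.423 from limma.

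Among 23 receptors and adaptors, 8 had groups apart with Ad-atrogin-1 lower and 1 with it higher. That is 34.8% and 4.35% of the list, beside 22.3% and 20.7% of all genes. The median log2 fold change of the list was -0.13. Tnfrsf1a, which encodes the main receptor for tumor necrosis factor, had 10.06 and 10.47 in Ad-GFP cells, against 9.85 and 9.74 with Ad-atrogin-1 (log2 fold change -0.47 with a standard error of 0.17, and adjusted p = 0.389 by limma), and Ltbr, the receptor for lymphotoxin beta, had a log2 fold change of -0.13. At an unadjusted p under 0.05 from limma, 3 genes of the list were lower, where 6.52% of all genes were. Besides Tnfrsf1a these were Il1rap and Myd88, named after their values were seen. Il1rap, the shared chain of interleukin-1 receptors, had 6.95 and 6.92 in Ad-GFP cells, against 5.96 and 6.20 with Ad-atrogin-1, far apart for the spread within groups (log2 fold change -0.86 with a standard error of 0.13, and adjusted p = 0.0984 by limma). Myd88, the adaptor of Toll-like and interleukin-1 receptors, had a log2 difference of -0.57 ± 0.19 (standard error). Il1r1, which encodes the signaling receptor for interleukin-1, had 3 probe sets that disagreed. Its brightest had overlapping groups and a log2 fold change of -0.06 (standard error 0.21), and another gave -0.003 (standard error 0.19). The third had 4.07 and 4.46 on the Ad-GFP arrays and 5.93 and 6.98 with Ad-atrogin-1, a log2 fold change of 2.19 (standard error 0.35) with adjusted p = 0.106 by limma.

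Of 13 measured genes listed for restraining the pathway, 5 had groups apart with Ad-atrogin-1 lower and 1 with it higher (all genes 22.3% and 20.7%), with a median of -0.29 on the log2 scale. The list also holds Traf3ip2 and Sharpin, which are known to promote signaling, and Traf3ip2 was 1 of the 5. Tax1bp1 and Tnip1, partners of A20, had log2 fold changes of 0.21 (standard error 0.17) and -0.30 (0.20) and overlapping groups. Zc3h12a encodes a ribonuclease that destroys the messenger RNA of cytokines, and was named after its value was seen. It had 7.07 and 7.77 in Ad-GFP cells, against 6.71 and 6.21 with Ad-atrogin-1 (log2 fold change -0.96 with a standard error of 0.28, and adjusted p = 0.301 by limma). Pdlim2, which encodes a protein that promotes the breakdown of p65 in the nucleus, was likewise named after its value was seen and had 0.61 (standard error 0.23, adjusted p = 0.405, limma), higher on both Ad-atrogin-1 arrays.

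The SCF subunits and ubiquitin enzymes listed for the pathway had a median log2 fold change of 0.02 over 11 genes. This list is not limited to enzymes that act on IkappaB itself. Skp1, the adaptor that SCF ligases share, had log2 signals of 11.22 and 11.09 in Ad-GFP cells, against 11.25 and 11.17 with Ad-atrogin-1, and Nedd8, the modifier that activates their cullin, had a log2 difference of 0.03 ± 0.11 (standard error). Btrc, which encodes beta-TrCP1, the F-box protein that recognizes phosphorylated IkappaB, was the 1 gene of this list at an unadjusted p under 0.05 and was named after its value was seen. It had 7.69 and 7.70 in Ad-GFP cells, against 7.24 and 7.03 with Ad-atrogin-1, with both Ad-atrogin-1 arrays well below the even Ad-GFP arrays (log2 fold change -0.56 with a standard error of 0.13, and adjusted p = 0.213 by limma). Its paralog Fbxw11, which encodes beta-TrCP2, had -0.08 (standard error 0.17) and overlapping groups, and the difference between the paralogs was not tested.

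The NF-kappaB target genes had the lowest median of the lists, -0.55 on the log2 scale over 37 measured genes, and limma called none of them, against 0.0492% of all genes called lower. Both Ad-atrogin-1 arrays lay below both Ad-GFP arrays at 23 of them and above at 1, where 22.3% and 20.7% of all genes were. At an unadjusted p under 0.05 from limma, 19 targets were lower and 0 higher. Of all 14217 genes, 6.52% were lower and 971 genes higher by this measure. A level at least 2-fold lower was measured at 13, against 0.387% of all genes and 0.271% of all probe sets. The list was written with these data known and holds genes that the study chose on these arrays, so its direction is not independent evidence. Ccl20, a chemokine that draws dendritic cells and lymphocytes, came nearest to a call, with 10.37 and 10.64 in Ad-GFP cells, against 9.12 and 8.65 with Ad-atrogin-1 (log2 fold change -1.62 with a standard error of 0.20, and adjusted p = 0.0616 by limma). It was called lower when 1 probe set per gene was tested (adjusted p = 0.0494, limma).

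The brightest targets had smaller differences than Ccl20. Ccl2, which attracts monocytes, had 12.62 and 12.96 in Ad-GFP cells, against 12.33 and 12.14 with Ad-atrogin-1 (log2 fold change -0.55, standard error 0.16), and Lcn2, which encodes an iron-binding acute-phase protein, had -0.52 (0.16). The targets with the lowest log2 fold changes of those that the study's account of inflammation names were Serpinb2, a serine protease inhibitor, at -2.35 (standard error 0.41), Il6, the cytokine, at -2.25 (0.40) and Ptgs2, which encodes cyclooxygenase 2, at -1.78 (0.31). Their groups did not overlap, and their adjusted p lay between 0.124 for Serpinb2 and 0.132 for Il6 by limma. The neutrophil chemokines Cxcl1 and Cxcl6 had -1.32 (standard error 0.32) and -1.09 (0.33). Cxcl3, a neutrophil chemokine, had -1.14 (standard error 0.33) and Lbp, which carries lipopolysaccharide to its receptor, -1.05 (0.38). Cxcl2 and Il1b did not share the pattern of groups without overlap. Cxcl2 had 8.63 and 10.01 in Ad-GFP cells, against 8.75 and 7.15 with Ad-atrogin-1, and Il1b had 6.77 and 7.69 against 8.72 and 6.48, with its highest and its lowest signal on the Ad-atrogin-1 arrays.

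**Figure D4:**
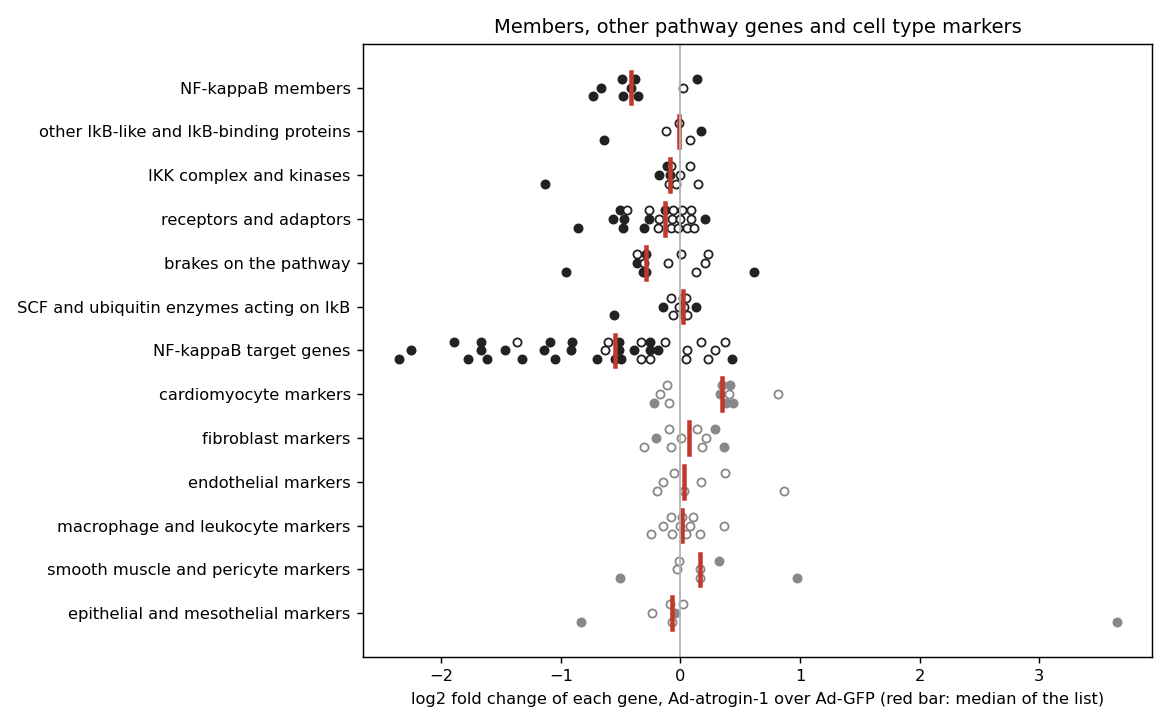
Log2 ratio of Ad-atrogin-1 to Ad-GFP (horizontal axis) of each gene at its brightest probe set, for the members, the other pathway lists (black) and the cell type markers (grey); filled points have groups that do not overlap, and red bars are list medians. The 9 members have a median of -0.42 and the target genes -0.55, and the kinases and the ubiquitin list have medians of -0.09 and 0.02. The label of the ubiquitin list names enzymes acting on IkB, but the list is not limited to these.

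Genes of the whole array with the NF-kappaB consensus in their promoter window were described as well, leaving out the members. Of 615 such measured genes, 26.5% were lower and 14.8% higher on both Ad-atrogin-1 arrays, and the median log2 fold change was -0.05. Of 11111 measured genes whose window held no match, 21.8% were lower and 21.3% higher, and the median was -0.00012. The shares at an unadjusted p under 0.05 were 8.46% lower and 4.55% higher with a match, and 6.29% and 7.06% without. These are descriptions, since genes are not independent replicates.

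Markers of the cells in the cultures were measured on the same arrays. Their counts without overlap stand beside 20.7% higher and 22.3% lower over all genes. Cardiomyocyte markers were bright, with summed signals of 15.51 and 15.60 in Ad-GFP cells, against 15.79 and 15.46 with Ad-atrogin-1 on the log2 scale, and 5 of 11 were higher and 1 lower without overlap. Macrophage and leukocyte markers, from cells in which NF-kappaB components abound, had groups that overlapped at all 11 genes. Their summed signal on the log2 scale was 8.64 and 8.68 in Ad-GFP cells, against 9.20 and 8.23 with Ad-atrogin-1. Fibroblast markers had 13.92 and 14.20 against 14.10 and 14.09, with 2 of 10 higher and 1 lower without overlap. Endothelial markers had 9.04 and 9.49 against 9.05 and 9.89, with overlap at all 7 genes. Smooth muscle and pericyte markers had 12.11 and 12.26 against 12.31 and 12.24, with 2 of 7 higher and 1 lower. Epithelial and mesothelial markers had 8.19 and 7.97 against 8.66 and 8.83, with 1 of 7 higher and 2 lower. The largest log2 fold change was 3.65 for Krt19, a keratin, with adjusted p = 0.141 by limma. Krt19 had log2 signals of 3.20 and 5.48 in Ad-GFP cells, against 7.89 and 8.09 with Ad-atrogin-1. The higher sums thus do not describe the list, in which 5 genes had a log2 fold change below 0 and the median was -0.07. Of the epithelial and mesothelial markers, 2 lay under the lower quartile of every array. The median signal of the macrophage and leukocyte markers was 4.66 and 4.78 in Ad-GFP cells, against 4.88 and 4.55 with Ad-atrogin-1, below the array medians. None of these lists had a called gene, and the part of cell composition in the members' values was not tested.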

How the data were processed

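The deposited values are log2 signals per probe set, which the authors made from Affymetrix rat genome arrays by RMA in GeneSpring GX, per the methods. RMA normalizes the arrays to one another, so a shift of all genes would not be seen. They were used as deposited, without the 57 control probe sets and with no filter on low signal. Of 31042 probe sets, 20826 were paired with 1 gene, 436 with several and 9780 with none. The comparison used lmFit and eBayes of limma 3.58.1 (R 4.3.3), two-sided and without a block, with 2 residual and 3.65 prior degrees of freedom, with Benjamini-Hochberg adjustment over all probe sets, and intervals of 95% come from this fit. In lists, each gene is represented by its brightest probe set on average. Named are all members, genes called in each of 12 lists or else the 2 brightest (for the marker lists, only sums and counts are given), and targets that the study's account of inflammation names. Map3k8, Il1rap, Myd88, Zc3h12a, Pdlim2, Btrc, Fbxw11, Traf3ip2, Sharpin, Krt19, Mmp3, Rel and the further probe sets of Il1r1 fall outside this rule and were named after values were seen. Members and lists were chosen with earlier results of these data known. The fit was tested on simulated data. Promoter windows are from RefSeq (GRCr8), and figures were drawn with matplotlib 3.10.9. Precision is limited by having 2 arrays per group.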

Additional observations from a re-analysis of the deposited data

How the results depend on the processing

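No member probe set was called in either direction under any alternative: centring on the median, quantile normalization, testing only the brightest 60%, a trended prior, a robust prior, the equal-variance t-test (p adjusted or not), no fold threshold, a replicate block, 1 value per gene, or any 1 array left out. The last says little, since limma then called none of all probe sets. The equal-variance t-test with adjusted p, which called 0, and the replicate block, which called 1, say little for the same reason. Over all probe sets the count was 77 higher and 8 lower in the fit as reported, 1 and 0 with a replicate block, 158 and 33 with the equal-variance t-test at unadjusted p, 0 with adjusted p, and 14 lower with centring or quantile normalization. Over all probe sets, the deviations of same-numbered arrays from their group means had a correlation of 0.04. With 2 arrays per group this cannot show whether same-numbered arrays shared a preparation. With the replicate block 4 member probe sets were lower at an unadjusted p under 0.05 instead of 7. That count was 2 with the equal-variance t-test and 1 to 7 with an array left out. The log2 fold change of Nfkbib ranged from -0.072 to 0.12 with an array left out (below 0, at -0.072 and -0.061, without replicate 1 of Ad-GFP or replicate 2 of Ad-atrogin-1). That of the dimmer Ikbkb probe set ranged from -0.32 to 0.12 (above 0 without replicate 2 of Ad-GFP), and no other member turned. Of the target genes, 0 were called lower in the fit as reported, 1 (Ccl20) with centring, among the brightest 60% or with the brightest probe set per gene, and 2 (Ccl20 and Mmp3) with quantile normalization or with probe sets averaged by gene. The added counts of probe sets without overlap and at unadjusted p were chosen after seeing the data.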
